A study of Mus musculus with 6 samples.

Results

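The genes described here encode the machinery that copies DNA and divides the cell. They are 46 genes of a fixed list, which was drawn up with earlier results of these data known. Of these, 23 act in S phase or at its onset and 23 act in mitosis. All 46 were found among the 37620 genes of the count files, and all 46 passed the low-count filter, which left 15056 genes for testing. A member's lowest count in any sample ranged from 126 for Fen1 to 13408 for Cdk4.

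Ribosome-bound mRNA was collected from the dentate gyrus of Gli1CreERT2:Rpl22HA f/+ mice aged 2 to 3 months that carried either Klf9 +/+ or Klf9 f/f. Every animal, controls included, carried the Gli1-driven Cre and the tagged ribosomal protein gene and received tamoxifen, 3 injections 12 hr apart. Cre activity switches on HA-tagged RPL22, so that an anti-HA antibody recovers ribosomes with their mRNAs, and in Klf9 f/f mice it also deletes Klf9, which encodes a zinc finger transcription factor. Each genotype gave 3 samples. A sample combined the 6 dentate gyri of 3 mice, and tissue was collected 4 days after tamoxifen ended, when the marked population holds the Gli1 lineage radial glia-like stem cells (RGLs) and the progeny of their first divisions. Per the labels, the Klf9 f/f samples are titled as a knock down. Recombination driven by Gli1 is not limited to RGLs, since it also reaches astrocytes. The library names fall into 2 series, YTa22 with replicates 1 and 2 of each genotype and YTa32 with replicate 3 of each, and what the series stand for is not given in the sources used here. Replicate numbers are names only and pair no samples.

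Between 21594714 and 66343759 reads per sample were counted on genes, with the 2 YTa32 samples the shallowest. The targeted gene itself, in CPM (counts scaled to library size), gave 201, 204 and 139 in Klf9 +/+ replicates 1 to 3. In Klf9 f/f replicates 1 to 3 it gave 114, 121 and 120 CPM. All Klf9 f/f samples lay below all Klf9 +/+ samples, which in an exact two-sided permutation test gives p = 0.1, the smallest that 3 against 3 allows. The log2 difference in Klf9 was −0.78 within YTa22 and −0.21 within YTa32. With the library series as a term, its log2 fold change was −0.59 (SE 0.15), with an adjusted p of 0.844 in edgeR's quasi-likelihood test. For its reporter mice the paper proposes that not all labelled RGLs recombined Klf9. The 12 markers of RGLs summed to 4773 to 6080 CPM in Klf9 +/+ samples and 5620 to 7252 CPM in Klf9 f/f samples. Of these, 10 were fitted as higher in Klf9 f/f samples and 1 passed the study's threshold as higher. Gfap, by which the study also identified astrocytes, alone gave 1866 to 4026 CPM, and Gli1 gave 2.92 to 9.62 CPM. The 10 astrocyte markers summed to 9748 to 12792 CPM in Klf9 +/+ samples and 12704 to 14533 CPM in Klf9 f/f samples. The 10 choroid plexus markers summed to 263 to 4060 CPM in Klf9 +/+ samples, the highest being replicate 3, and to 108 to 770 CPM in Klf9 f/f samples. The 8 endothelial markers summed to 133 to 339 CPM in Klf9 +/+ samples and 50.3 to 215 CPM in Klf9 f/f samples. By the study's threshold 10 of 10 choroid plexus and 2 of 8 endothelial markers were lower in Klf9 f/f samples, 4 of 10 astrocyte markers were higher, and the part of these cell types in the members' differences was not tested beyond the choroid plexus fit below. The 8 markers of progenitors and neuroblasts summed to 1550 to 3237 CPM in Klf9 +/+ samples and 976 to 2303 CPM in Klf9 f/f samples. Of these 8, 0 were fitted as higher in Klf9 f/f samples and 0 were called lower, with a median log2 fold change of −0.32. No marker of these lists was at 0 in any sample.

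Before S phase, the MCM helicase is loaded onto replication origins by Cdc6 and Cdt1, and geminin prevents a second loading in the same cycle. E2F factors switch on the genes of this stage once the retinoblastoma protein is phosphorylated by cyclin-dependent kinases. The genes of mitosis are switched on later, with B-Myb and FoxM1, through promoter elements called CHR (cell cycle genes homology region). Adult RGLs of the dentate gyrus are mostly quiescent, and markers of these stages are used to recognise those that divide and their cycling progeny. In a pooled tissue sample, fewer cells of a type and less RNA per cell cannot be told apart.

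The letters of both kinds of element were searched in the promoters of the members, and a few stretches are shown because the 2 classes differed in them. RefSeq promoter windows of 300 bases, 250 before and 50 after an annotated start, were held for 20 of the 23 S-phase and 20 of the 23 mitotic members, on build GRCm38.p6, which differs from the mm9 build of the counts. The E2F letters searched were TTTGGCGC, TTTCCCGC, TTCCCGCC and TTGGCGCC, which overlap each other, and the CHR letters were TTTGAA and TTCGAA, all on either strand. E2F letters were found for 11 of the 20 S-phase members and 1 of the 20 mitotic members, against 4.34% of the 27025 genes with a window (3.77% of 32851 windows). CHR letters were found for 3 of the 20 S-phase members and 16 of the 20 mitotic members, against 21.7% of all genes with a window (19.2% of windows). Among further replication genes outside the 46, E2F letters were in 19 of 43 genes with a window and CHR letters in 11. Among further mitotic genes, E2F letters were in 8 of 49 and CHR letters in 32. A match is a description of the letters and not evidence of a bound site. The 180 bases before the start are printed 5′ to 3′ on the gene's own strand, with E2F letters in capitals, for 3 S-phase members: Mcm5 at chr8:75109329-75109508 (plus strand), Mcm6 at chr1:128359706-128359885 (minus strand) and Rrm1 at chr7:102441515-102441694 (plus strand).
Mcm5: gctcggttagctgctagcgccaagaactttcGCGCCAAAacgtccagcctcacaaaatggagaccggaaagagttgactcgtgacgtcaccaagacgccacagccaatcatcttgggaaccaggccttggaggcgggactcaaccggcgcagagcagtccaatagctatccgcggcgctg
Mcm6: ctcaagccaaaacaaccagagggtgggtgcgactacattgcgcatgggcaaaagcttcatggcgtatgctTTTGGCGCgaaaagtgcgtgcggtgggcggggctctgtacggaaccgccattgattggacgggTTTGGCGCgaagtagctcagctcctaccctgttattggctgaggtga
Rrm1: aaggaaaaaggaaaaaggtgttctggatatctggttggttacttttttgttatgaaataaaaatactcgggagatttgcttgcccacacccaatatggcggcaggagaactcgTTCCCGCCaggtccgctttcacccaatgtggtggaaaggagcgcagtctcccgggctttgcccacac
The stretch of Mcm6 holds the letters at 2 places, 110 and 47 bases before the start. Mcm2, at chr6:88898781-88898960 (minus strand), holds none of the E2F letters in its window and has CHR letters, in capitals here.
Mcm2: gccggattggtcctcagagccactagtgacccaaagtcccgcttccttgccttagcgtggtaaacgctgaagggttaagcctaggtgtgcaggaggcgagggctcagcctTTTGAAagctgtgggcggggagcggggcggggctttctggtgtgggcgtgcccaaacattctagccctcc
For 4 mitotic members the CHR letters lie close to the start: Cdk1 at chr10:69352913-69353092 (minus strand), Cdc20 at chr4:118437344-118437523 (minus strand), Ube2c at chr2:164769749-164769928 (plus strand) and Kif11 at chr19:37376202-37376381 (plus strand). Capitals mark CHR letters, read as TTCAAA where the match is on the other strand, and in Cdk1 the first capitals mark E2F letters.
Cdk1: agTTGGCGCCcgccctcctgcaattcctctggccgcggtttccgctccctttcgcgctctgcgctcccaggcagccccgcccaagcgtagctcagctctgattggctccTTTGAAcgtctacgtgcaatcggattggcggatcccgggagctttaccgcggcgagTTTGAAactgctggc
Cdc20: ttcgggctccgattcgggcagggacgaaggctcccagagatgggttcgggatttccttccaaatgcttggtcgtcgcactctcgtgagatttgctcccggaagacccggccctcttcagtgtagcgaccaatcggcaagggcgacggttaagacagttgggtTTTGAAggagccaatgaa
Ube2c: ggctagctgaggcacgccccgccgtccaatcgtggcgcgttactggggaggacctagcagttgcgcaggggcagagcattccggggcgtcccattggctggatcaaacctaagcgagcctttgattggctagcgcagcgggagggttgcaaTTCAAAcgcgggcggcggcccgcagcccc
Kif11: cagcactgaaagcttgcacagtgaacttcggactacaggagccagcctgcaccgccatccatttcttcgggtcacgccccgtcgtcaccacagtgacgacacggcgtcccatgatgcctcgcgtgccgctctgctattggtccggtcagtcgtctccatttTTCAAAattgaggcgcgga
Cdk1 is the only mitotic member with a window that held E2F letters, 178 bases before its start. The CHR letters nearest the start lay 15, 18, 29 and 19 bases before it in Cdk1, Cdc20, Ube2c and Kif11. These 4 were chosen for display and do not stand for the class. In Prc1, Top2a, Mki67 and Bub1b the nearest letters before the start lay 5, 23, 98 and 188 bases from it. In Aurka, Bub1, Cenpf, Kif23, Ndc80, Plk1, Racgap1 and Ttk the letters lay only after the start.

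Cycle genes were well represented in the RNA recovered with the anti-HA antibody. Input samples were not analysed, so enrichment on tagged ribosomes was not tested. As CPM per kilobase of exon, averaged over the 6 samples, the members had a median level of 27.6, against 6.18 over 15035 tested genes with a known exon length. Cdk4, the cyclin D kinase, was the highest at 237 CPM per kilobase, and its lowest sample lay above the highest sample of the next gene, Rrm2, a ribonucleotide reductase subunit, at 145. Cdc20, an activator of the anaphase-promoting complex, followed at 124 and the replication clamp gene Pcna at 109. The sample ranges of Rrm2, Cdc20 and Pcna overlapped from one to the next in this order. Ube2c and Cdk1 were the next highest mitotic members, at 79.4 and 62.04 CPM per kilobase. At the low end stood Mki67 at 6.51, Mybl2 at 3.64, Pola1 at 2.94, Pole at 1.77 and Fen1 at 1.76. Fen1 is uncertain, since 84.2% of its exon bases overlap genes on the opposite strand and the counting took no account of strand. Smaller overlaps touch Ube2c (22.8% of exon bases), Cdk4 (18.6%), Rfc4 (12.6%) and Mcm7 (12.6%). The median level was 33.2 over the S-phase members and 26.0 over the mitotic members.

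No member passed the study's threshold, 1.2-fold with an unadjusted p under 0.05, in either direction between genotypes. In edgeR's quasi-likelihood test with the library series as a term, 0 of 46 were called higher in Klf9 f/f samples, where 1.82% of all tested genes were, and 0 were called lower, where 2.5% were. None had an unadjusted p under 0.05, and every member's Benjamini-Hochberg adjusted p in this test was 0.9995. Over all 15056 tested genes 0 had an adjusted p under 0.05 in this test, the smallest being 0.068. Failing the adjusted threshold therefore does not set the members apart. The likelihood-ratio test also called 0, and DESeq2 called 1, Mcm2, at an unadjusted p of 0.0499 and an adjusted p of 0.9998. The fitted log2 fold changes, Klf9 f/f over Klf9 +/+, ran from −0.24 for Cdk6 to 0.30 for Cdc6 and Pole, with standard errors of 0.12 to 0.23. In the quasi-likelihood fit with the series term, the 95% interval excluded a 2-fold change in either direction for all 46 members. For 38 members it excluded a 1.5-fold change in either direction. These bounds hold for that fit alone. With the choroid plexus covariate described below, Bub1 was fitted at 0.78 and Mki67 at −0.55 on the log2 scale. Differences of the size of the fitted values could not be told from none with 3 samples per genotype.

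The fitted differences leaned upwards without reaching the threshold. Of the 46 members 36 had a fitted level that was higher in Klf9 f/f samples, against 7553 of all 15056 tested genes. The median log2 fold change was 0.11 over the 23 S-phase members, 0.08 over the 23 mitotic members and 0.00 over all tested genes. All members were read in the same 6 samples, so these counts are a description. All Klf9 f/f samples lay above all Klf9 +/+ samples within each library series for 6 members, Mcm2, Mcm5, Cdt1, Rfc4, Cdk2 and Cdc20, which is 13.0% of members beside 7.78% of all tested genes. The reverse held for 0 members beside 5.53% of all tested genes. Over the 6 samples without regard to series, the groups did not overlap for Mcm2, Cdt1 and Cdk2, all higher in Klf9 f/f samples, which is 6.52% of members beside 2.03% of all tested genes. For 0 members did every Klf9 f/f sample lie below every Klf9 +/+ sample, beside 1.35% of all tested genes. With the choroid plexus level as a covariate, 23 of 46 members were fitted as higher, the S-phase median was −0.0070 and the mitotic median was 0.0065. In that fit Mcm2 to Mcm7 were all fitted as higher, with a median of 0.33, against 0.23 without the covariate. The covariate, a mean log2 CPM, was 1.46 and 3.26 in Klf9 +/+ and 0.52 and 0.38 in Klf9 f/f samples of YTa22. In YTa32 it was 6.14 in Klf9 +/+ and 3.48 in Klf9 f/f. It went with genotype within each series, so the fit cannot fully tell them apart.

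**Figure D1:**
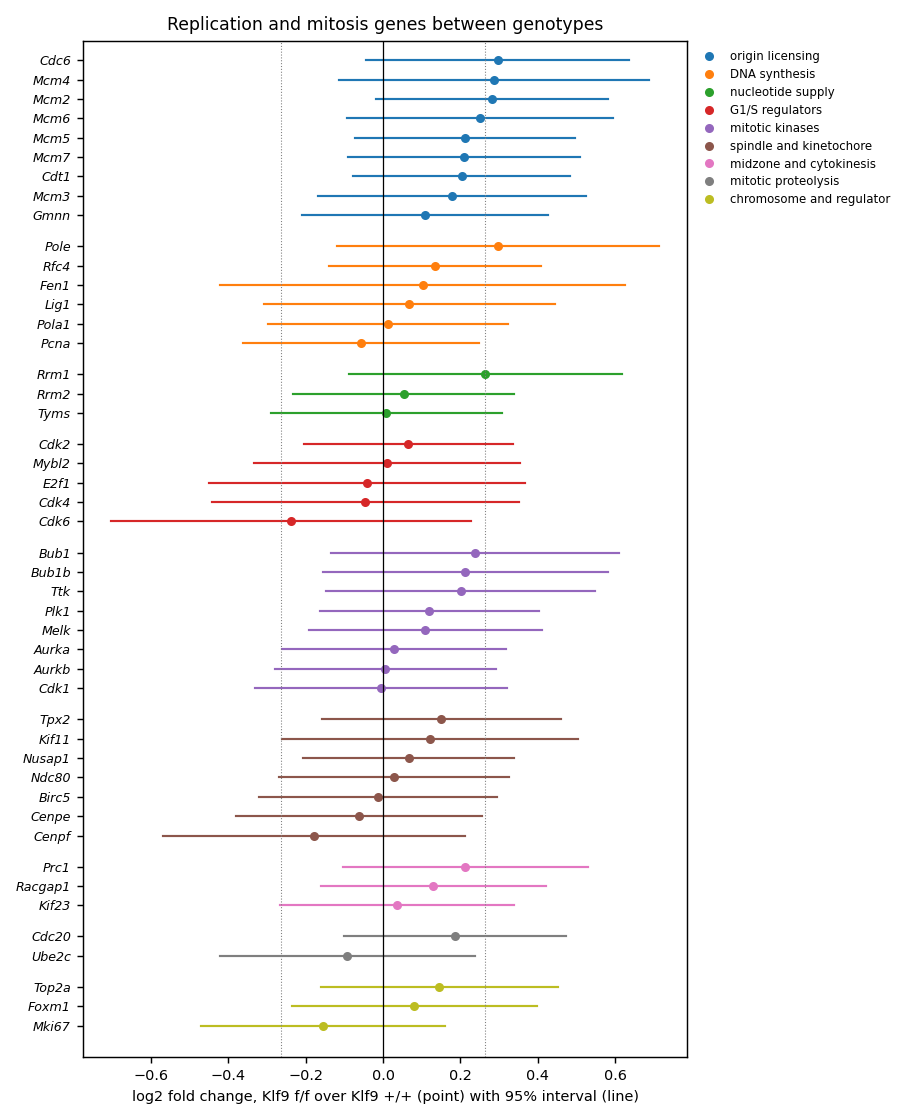
Log2 fold change of each of the 46 members, Klf9 f/f over Klf9 +/+, as a point with its 95% interval as a line, grouped by role in colour, with dotted lines at a 1.2-fold change. All 46 intervals cross 0, and the 9 origin licensing genes all lie to the right of it.

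The 9 genes of origin licensing were the group that leaned most, 9 of 9 being fitted as higher, by 0.21 at the median on the log2 scale. Mcm2 (mm9 chromosome 6, 88833469 to 88848774, minus strand), a helicase subunit widely used as a marker of licensed cells, measured 154, 169 and 170 CPM in the Klf9 +/+ samples, given in the order of their replicate numbers here and for the genes that follow. Its Klf9 f/f samples measured 214, 176 and 209 CPM. The groups did not overlap, with Klf9 f/f replicate 2 only just above the controls. The log2 fold change of Mcm2 was 0.28 (SE 0.13, n = 3 per genotype), with an unadjusted p of 0.063 and an adjusted p of 0.9995 in edgeR's quasi-likelihood test, the smallest unadjusted p among the members.

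In the other helicase subunits the groups overlapped. Mcm4 stood at 108, 107 and 107 CPM in the Klf9 +/+ samples and at 162, 100 and 130 CPM in the Klf9 f/f samples. Mcm6 stood at 316, 340 and 304 CPM in the Klf9 +/+ samples and at 442, 324 and 377 CPM in the Klf9 f/f samples. Klf9 f/f replicate 1 was the highest of the 6 samples for every one of Mcm2 to Mcm7, and Klf9 f/f replicate 2 lay at or near the control range. The 6 log2 fold changes ran from 0.18 for Mcm3 to 0.29 for Mcm4, and all 6 were above 0 under every alternative computed. Summed over Mcm2 to Mcm7, the level was 1147 ± 61.6 CPM (SD, n = 3) in Klf9 +/+ samples and 1349 ± 174 CPM in Klf9 f/f samples. The groups overlapped, since Klf9 f/f replicate 2 gave 1189 CPM and Klf9 +/+ replicate 2 gave 1207 CPM. Without Klf9 f/f replicate 1 the median of the 6 was 0.14. Without Klf9 f/f replicate 2 it was 0.34, and 6 members passed the study's threshold, namely Mcm2, Mcm4, Mcm6, Cdc6, Rrm1 and Bub1b. Their adjusted p-values were 0.856 to 0.920 in edgeR's quasi-likelihood test. In that fit 494 of all 15056 tested genes were called higher, against 274 in the fit to all 6 samples. Klf9 f/f replicate 1 also had 14521 CPM of astrocyte markers, close to the highest of the 6 samples, and 976 CPM of progenitor and neuroblast markers, the lowest. The part of these cell markers in the helicase levels was not tested.

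Among the loaders and their inhibitor, Cdt1 stood at 57.5, 54.5 and 49.3 CPM in Klf9 +/+ samples and at 61.6, 61.3 and 62.6 CPM in the Klf9 f/f samples. The Klf9 f/f samples of Cdt1 were close together and above all controls, with a log2 fold change of 0.20 (SE 0.12) and an unadjusted p of 0.135 in the same test. Cdc6 stood at 44.2, 37.9 and 33.4 CPM in Klf9 +/+ samples and at 55.8, 42.3 and 43.4 CPM in the Klf9 f/f samples. These groups overlapped, and the log2 fold change of Cdc6 was 0.30 (SE 0.15). Gmnn, which encodes geminin, the inhibitor of Cdt1, gave 76.6, 60.0 and 32.6 CPM against 69.4, 71.1 and 38.8 CPM. For Gmnn the spread between library series was wider than the spread between genotypes.

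**Figure D2:**
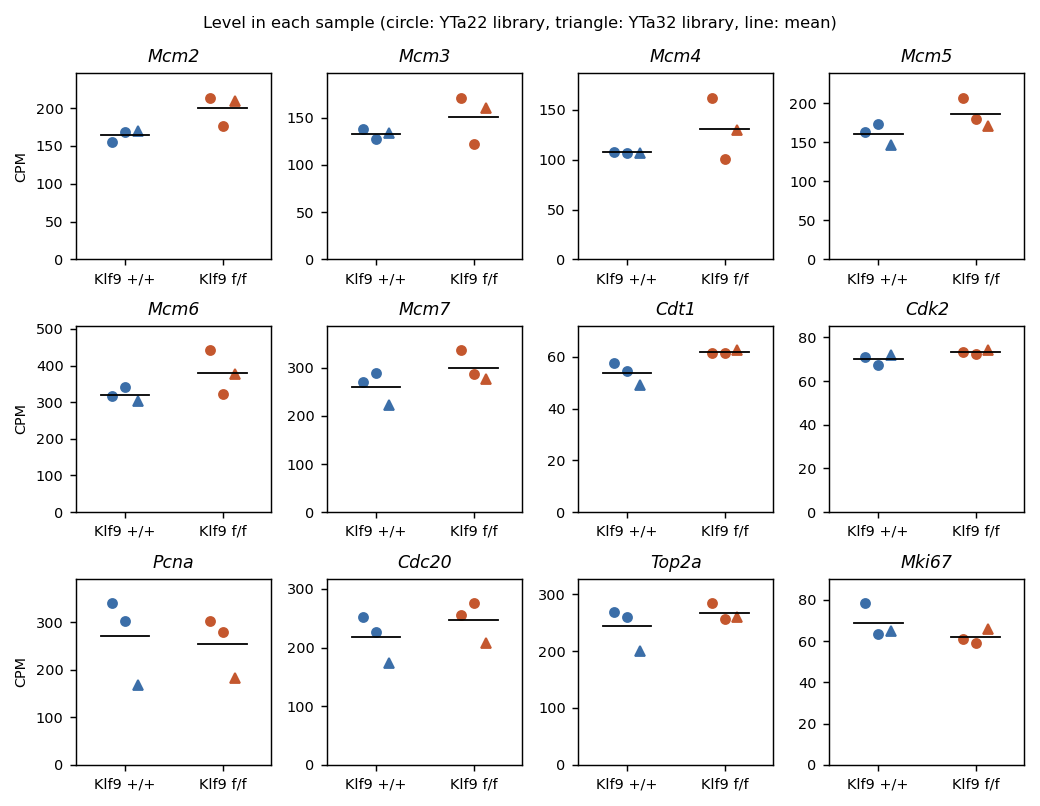
CPM of 12 members in each sample, Klf9 +/+ in blue and Klf9 f/f in orange, with YTa22 libraries as circles, YTa32 libraries as triangles and a line at the group mean. The groups are apart for Mcm2, Cdt1 and Cdk2 and overlap for the other 9 genes, and the YTa32 triangles of Pcna lie below the circles.

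The 6 genes of DNA synthesis and the 3 of nucleotide supply had median log2 fold changes of 0.08 and 0.05. Pcna, the sliding clamp of the replicative polymerases, stood at 341, 302 and 167 CPM in Klf9 +/+ samples and at 301, 279 and 182 CPM in the Klf9 f/f samples. The groups overlapped fully, and the log2 fold change of Pcna was −0.06 (95% interval −0.36 to 0.25). Rfc4, a subunit of the clamp loader, stood at 147, 136 and 74.5 CPM in Klf9 +/+ samples and at 149, 155 and 85.9 CPM in the Klf9 f/f samples, higher in Klf9 f/f samples within each series and overlapping across them. Its log2 fold change was 0.13 (SE 0.12). Pole, the catalytic subunit of polymerase epsilon, was fitted at 0.30 (SE 0.18) from low levels of 13.7 to 20.8 CPM, and it passed the study's threshold without Klf9 +/+ replicate 1, with a log2 fold change of 0.45 and an unadjusted p of 0.0477 in edgeR's test. The subunits of ribonucleotide reductase differed in their values. Rrm1 was fitted at 0.26 (SE 0.16), and Rrm2, the subunit whose level rises in S phase, stood at 400, 434 and 347 CPM against 445, 430 and 352 CPM, with a log2 fold change of 0.05 (SE 0.13). Tyms, which makes thymidylate, was fitted at 0.01 (SE 0.13).

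The 5 regulators of S phase entry centred on −0.04, their median log2 fold change, and 2 of 5 were fitted as higher. Cdk2, the partner of cyclins E and A, stood at 71.1, 67.4 and 71.9 CPM in Klf9 +/+ samples and at 73.4, 72.5 and 74.2 CPM in the Klf9 f/f samples. Its groups did not overlap, yet the difference was small, with a log2 fold change of 0.06 (SE 0.12) and an unadjusted p of 0.601 in edgeR's quasi-likelihood test. Cdk4 stood at 882, 924 and 557 CPM in Klf9 +/+ samples and at 662, 1001 and 597 CPM in the Klf9 f/f samples, with broad overlap. Cdk6, the other kinase partner of D cyclins, had the lowest fitted value of the members, −0.24 (SE 0.21), and its sign differed between series, at −0.54 within YTa22 and 0.34 within YTa32. Within YTa22 alone, Cdk6 passed the study's threshold as lower in Klf9 f/f samples, with an unadjusted p of 0.0347 and an adjusted p of 0.99999 in edgeR's test. With either YTa32 sample left out the genotype difference rests on the same YTa22 samples. The log2 fold change of Cdk6 was then −0.52 without Klf9 f/f replicate 3 and −0.53 without Klf9 +/+ replicate 3. E2f1 and Mybl2, which encode transcription factors of the cycle, were fitted at −0.04 and 0.01.

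The mitotic members, with the median of 0.08 given above, followed in the order of their roles. Of the 8 mitotic kinases, 7 were fitted as higher, with a median of 0.11, and the range ran from −0.005 for Cdk1, the kinase that drives entry into mitosis, to 0.24 for Bub1 of the spindle checkpoint. Cdk1 stood at 292, 228 and 129 CPM in Klf9 +/+ samples and at 243, 246 and 145 CPM in the Klf9 f/f samples, so its groups overlapped fully. Of the 7 spindle and kinetochore genes 4 were fitted as higher, with a median of 0.03 and the lowest value, −0.18, at the kinetochore gene Cenpf. The 3 genes of the spindle midzone and cytokinesis, Prc1, Racgap1 and Kif23, were fitted at 0.21, 0.13 and 0.04. Birc5, the chromosomal passenger protein survivin, was fitted at −0.01 (SE 0.14).

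The genes that act through the anaphase-promoting complex differed in sign. Cdc20 stood at 253, 226 and 174 CPM in Klf9 +/+ samples and at 256, 276 and 207 CPM in the Klf9 f/f samples, higher in Klf9 f/f samples within each series, with a log2 fold change of 0.19 (SE 0.13). Ube2c, its ubiquitin-conjugating enzyme, stood at 277, 241 and 127 CPM against 204, 254 and 135 CPM, with a log2 fold change of −0.09 (SE 0.15). Mki67 and Top2a, markers of dividing cells, overlapped between genotypes. Mki67, whose protein coats mitotic chromosomes, stood at 78.6, 63.6 and 64.9 CPM in Klf9 +/+ samples and at 61.1, 59.0 and 66.0 CPM in the Klf9 f/f samples. Klf9 +/+ replicate 1 was the highest and the other 5 samples lay between 59.0 and 66.0 CPM, giving a log2 fold change of −0.16 (95% interval −0.47 to 0.16), and of −0.04 without that sample. Top2a, the topoisomerase that untangles sister chromatids, stood at 270, 260 and 201 CPM in Klf9 +/+ samples and at 285, 257 and 260 CPM in the Klf9 f/f samples. Its log2 fold change was 0.15 (95% interval −0.16 to 0.45), and it was 0.0065 with the choroid plexus covariate. In YTa22 alone it was 0.03, as it was with either YTa32 sample left out, where the genotype difference rests on the same YTa22 samples. Foxm1, the transcription factor of the mitotic programme, was fitted at 0.08 (SE 0.14).

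Summed over the 23 S-phase members, the level was 3542 ± 536 CPM (SD, n = 3) in Klf9 +/+ samples and 3773 ± 365 CPM in Klf9 f/f samples. Summed over the 23 mitotic members it was 2856 ± 446 CPM and 2971 ± 253 CPM. In both sums the genotypes overlapped, and the 2 YTa32 samples were the lowest of the 6, at 2923 and 3354 CPM for S phase and 2350 and 2679 CPM for mitosis. The ratio of the S-phase to the mitotic sum was 1.202, 1.278 and 1.244 in Klf9 +/+ samples and 1.285, 1.271 and 1.252 in Klf9 f/f samples, and these ranges overlapped. Genes of the same stages outside the 46 were counted in the same way. Of 50 further replication genes 0 were called in either direction, 36 were fitted as higher and the median was 0.08. Of 61 further mitotic genes 0 were called, 43 were fitted as higher and the median was 0.09. Over all tested genes 1.82% were called higher and 2.5% lower, so few calls fall to lists of this size. Of all 15056 tested genes 7553 were fitted as higher, with a median of 0.00. An unadjusted p under 0.05 in edgeR's quasi-likelihood test was reached by 0 of these further genes, beside 650 of all 15056 tested genes.

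**Figure D3:**
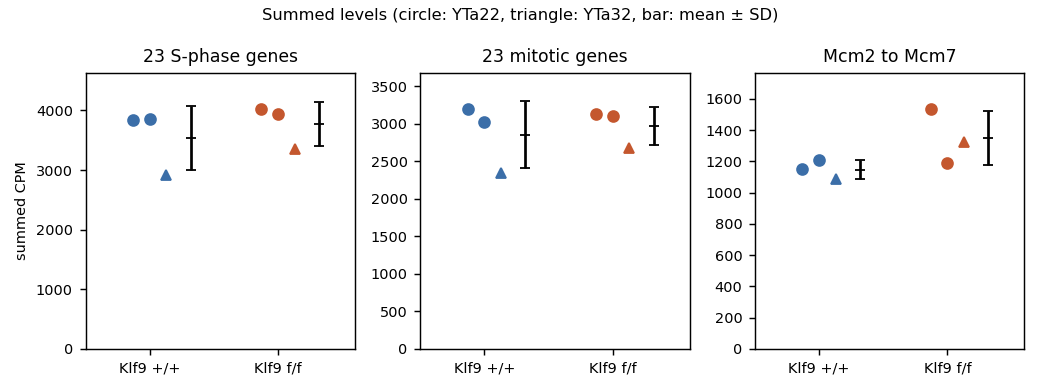
Summed CPM of the 23 S-phase members, the 23 mitotic members and Mcm2 to Mcm7 in each sample, with the mean ± SD (n = 3) beside each genotype. The YTa32 triangles are the lowest of their genotype for the S-phase and mitotic sums, and Klf9 f/f replicate 1 is the highest for Mcm2 to Mcm7.

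In both library series more members were higher than lower in Klf9 f/f samples. Within YTa22, with 2 samples of each genotype, 31 of 46 members were higher in Klf9 f/f samples, with a median log2 CPM difference of 0.08 over S-phase and 0.04 over mitotic members. Within YTa32, with 1 sample of each genotype and therefore no replicate, 44 of 46 were higher, with medians of 0.25 and 0.16. Over all tested genes 7407 were higher within YTa22 and 8114 within YTa32, with median differences of −0.004 and 0.02. All 9 licensing genes were higher in both series. Pole, Cdc6 and Top2a had the widest differences within YTa32, at 0.55, 0.38 and 0.37. The YTa32 control, Klf9 +/+ replicate 3, is the sample with 4060 CPM of choroid plexus markers, against 770 CPM in the YTa32 Klf9 f/f sample, and it had the lowest S-phase and mitotic sums of all samples. The part of the choroid plexus RNA in the difference was not tested apart from the fit with it as a covariate, given above.

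**Figure D4:**
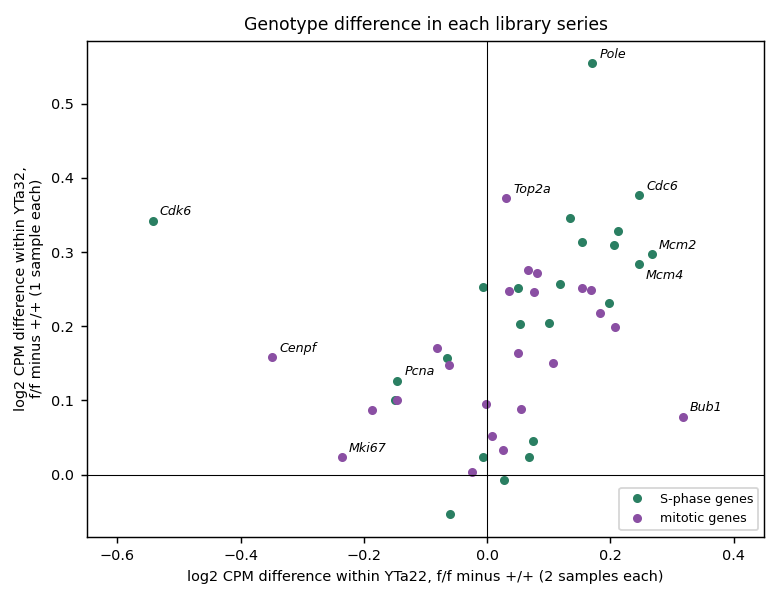
Log2 CPM difference of each member, Klf9 f/f minus Klf9 +/+, within YTa22 (horizontal axis) and within YTa32 (vertical axis), S-phase members in green and mitotic members in purple. 44 of 46 points lie above 0 on the vertical axis and 31 lie right of 0 on the horizontal axis.

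More members passed the test between library series than between genotypes. With genotype as a term, 11 of 46 members were lower in YTa32 than in YTa22 at an adjusted p under 0.05 in edgeR's quasi-likelihood test, beside 16.6% of all tested genes, and 2 were higher, beside 12.9%. Rfc4, Gmnn, Birc5, Tyms and Cdk1 had the smallest p-values among the lower ones, with log2 differences of −0.87, −0.96, −0.91, −0.85 and −0.88, and adjusted p-values between 0.0046 and 0.0061. Fen1 and Foxm1 were the 2 higher members, by 1.49 (SE 0.24, adjusted p = 0.0049) and 0.86 (SE 0.15, adjusted p = 0.0054) on the log2 scale in edgeR's test. Fen1 rests on 126 to 213 counts, and 84.2% of its exon bases overlap genes on the opposite strand. Reads set aside as ambiguous between genes were 2.42% to 2.64% in YTa22 samples and 1.35% to 1.38% in YTa32 samples. The part of this in the Fen1 difference was not tested. For Foxm1 the YTa32 samples, at 64.7 and 72.5 CPM, lay above the 4 YTa22 samples, at 32.5 to 41.8 CPM. None of the 6 Mcm genes passed, their series differences running from −0.25 to 0.09. With either YTa32 sample left out, which leaves 1 sample in that series, 0 members had an adjusted p under 0.05, and 14 had an unadjusted p under 0.05 without Klf9 f/f replicate 3 and 9 without Klf9 +/+ replicate 3.

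The members that were lower in YTa32 had a shorter median transcript than the rest. Their longest coding transcript had a median of 2201 bases over the 11 lower members, against 3421 bases over the 33 that passed in neither direction. Over all tested genes with a coding transcript the medians were 1400 bases for genes lower in YTa32, 3145 bases for genes that did not pass and 4257 bases for genes higher. Gmnn, Rfc4 and Pcna, with 1127, 1279 and 1518 bases, were short and lower. Cenpe was lower with 7813 bases, so length did not sort the members fully. Across the 46 members Spearman's rho between the series difference and transcript length was 0.31, and across 14000 genes it was 0.52, as a description over genes that share the same 6 libraries. The YTa32 libraries were also shallower, and 25.9% to 26.6% of their reads fell on the summary lines of the counter rather than on a gene, against 16.4% to 19.1% in YTa22. The part of length or depth in the difference between series was not tested.

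**Figure D5:**
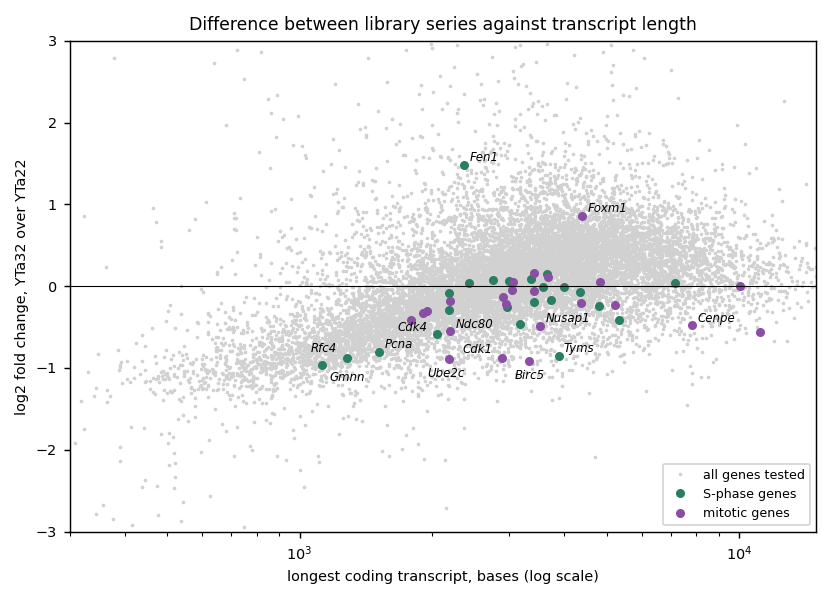
Log2 fold change between library series, YTa32 over YTa22, against the length of the longest coding transcript on a log scale, for 13874 tested genes in grey and the members in colour, with the 13 members past an adjusted p of 0.05 named. Gmnn, Rfc4 and Pcna lie at the short end and below 0, and 126 genes fall outside the axes.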

How the data were processed

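Ribosome-bound mRNA of 3 Klf9 +/+ and 3 Klf9 f/f samples was analysed. By the study's methods, the authors aligned the reads to mouse mm9 with STAR and took unstranded gene counts with HTSeq. The deposited values are these raw counts, whole numbers that had not been normalized. The annotation they counted on is not given in the sources used here. Genes were named from GENCODE M1 of the same build, which named 37205 of 37620. Summary lines of the counter, 16.4% to 26.6% of reads, entered no test. Input samples were not analysed here.

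Genes that exceeded 1 CPM in 1 or more samples were normalized by TMM and fitted with edgeR 4.0.16 under R 4.3.3 (quasi-likelihood, genotype plus library series, 3 residual degrees of freedom). The study's own threshold, a 1.2-fold change with p under 0.05 before adjustment, was used for calls between genotypes. Calls between library series required a Benjamini-Hochberg adjusted p under 0.05 over all 15056 genes. Standard errors came from the size of the log2 fold change and its F statistic. Values per sample are TMM-scaled CPM, and differences within a series use log2 CPM with a prior count of 2. The p-values set each difference against the spread between these pools of mice. That spread was estimated with information shared across genes, and YTa32 holds 1 pool of each genotype. The fit was tested on simulated data first.

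The 46 members and every list were chosen with earlier results of these data known. The members named are those that were called, whose samples separated within each series (up to 6 per direction), the 3 highest per class, Mki67, Top2a, Mcm2 and Pcna, and those past the adjusted threshold between series (up to 5 per direction). Other members were named to describe their role, with their values known. The alternatives dropped the series term, left out each of the 6 samples, kept YTa22 alone, added a choroid plexus covariate, or replaced the test (likelihood-ratio, DESeq2 1.42.0), the normalization (RLE) or the filter. One of 62 further mitotic genes had no match. Promoter sequences are from RefSeq. Figures were drawn with matplotlib 3.10.9.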

Additional observations from a re-analysis of the deposited data

How the results depend on the processing

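The counts of members called changed with the method and with single samples. Against 0 called higher and 0 called lower, DESeq2 called 1 higher (Mcm2), the choroid plexus covariate called 1 higher (Bub1), and YTa22 alone called 1 lower (Cdk6), and leaving out 1 sample gave 0 to 6 higher and 0 to 1 lower. Over all 15056 tested genes DESeq2 called 277 higher, the covariate fit 355 higher and YTa22 alone 211 lower. Without Klf9 f/f replicate 2, the setting with 6 members called higher, 494 genes were called higher. The fit to all 6 samples called 274 higher and 376 lower. With the covariate Bub1 had a log2 fold change of 0.78, an unadjusted p of 0.0408 and an adjusted p of 0.785 in edgeR's test. No alternative gave a member an adjusted p under 0.05. The S-phase median log2 fold change was 0.0694 to 0.197 with 1 sample left out and −0.00705 with the choroid plexus covariate. The mitotic median was 0.0346 to 0.120 with 1 sample left out and 0.00652 with the covariate. With 1 sample left out, 0 to 13 members were lower and 0 to 2 higher in YTa32, and both were 0 when either YTa32 sample was left out, where the lone sample is assumed to vary like the other group. With the covariate Cdc20, Cdk2, Fen1, Gmnn, Rfc4 and Tyms changed sign, to −0.0217, −0.00705, −0.263, −0.323, −0.0153 and −0.117, and Tyms was −0.00486 in YTa22 alone. The cause was not tested. With 1 sample left out, values crossed 0 for Birc5 (−0.0959 to 0.0661), Cdk1 (−0.0972 to 0.128), Cdk4 (−0.21 to 0.13), Foxm1 (−0.00494 to 0.201), Pcna (−0.153 to 0.0198), Tyms (−0.0821 to 0.0947) and Ube2c (−0.188 to 0.0195). Over the 18 members named by rule, 230 of the values under alternatives kept their sign and their side of the threshold, 20 changed sign and 2, both of Mcm2, newly passed it. Keeping YTa22 alone and leaving out either YTa32 sample rest the genotype difference on the same YTa22 samples, so their values are not separate checks. No paired analysis was possible because the labels carry no replicate numbers, and those used here are names given in accession order. For 8 of 46 members the 95% interval of the quasi-likelihood fit to all 6 samples, with the series term, reached a 1.5-fold change. A change of that size is not excluded there.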
